A study of Mus musculus with 6 samples.

Results

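The genes described here make, bind, sense and break down retinoic acid, the active form of vitamin A. They are 9 of the 18193 genes that the arrays measured: the retinal dehydrogenases Aldh1a1, Aldh1a2 and Aldh1a3, the receptors Rara, Rarb and Rarg, the binding proteins Crabp1 and Crabp2, and the degrading enzyme Cyp26b1. They were chosen by name, and every probe set annotated to one of these symbols alone was taken, which gave 12 probe sets. A probe set is a group of short array sequences that reports 1 transcript. Where a gene had several, the 1 with the highest mean log2 signal over the 6 arrays stands for it, and the others served as a check. Of the 9 genes, 7 had a signal over the near-background limit described below on at least 3 arrays, and Aldh1a3 and Crabp1 did not.

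Gene expression was compared between 2 populations of cultured bone marrow stromal cells (BMSC) on 3 arrays each. Naïve Large T BMSC came from marrow of transgenic Immortomouse mice, which express an SV40 large T antigen that is active at low temperature, under a promoter of the major histocompatibility complex, so that the cells keep dividing at 33°C. iLarge T BMSC were cells of this kind injected into a vein of male C57BL/6 mice, 6 to 8 weeks old, 24 h after reperfusion that ended 60 min of middle cerebral artery occlusion, recovered from the infarcted hemisphere 14 days later and grown again at 33°C. Both populations carried the transgene and were passaged 3 times before they were characterized and frozen. Each array held RNA pooled from 3 hemispheres or from 3 sets of naïve cells, so that a p-value measures the spread between pools. Arrays with the odd numbers 1, 3 and 5 held naïve BMSC, and those numbered 2, 4 and 6 held iLarge T BMSC.

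Retinol enters cells, is oxidized to retinal and is then oxidized by a retinal dehydrogenase to retinoic acid. The CRABP proteins carry retinoic acid inside the cell to the nucleus or to the enzymes that destroy it. In the nucleus it binds retinoic acid receptors, which sit on DNA as dimers with a retinoid X receptor and switch target genes on when the ligand is bound. Enzymes of the CYP26 family end the signal. In the brain the meninges are a known source of retinoic acid, and in marrow and other stroma the pathway takes part in differentiation.

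Signals were deposited as MAS5 made them, which are linear intensities. The 40th percentile of each array, a signal of 183 to 299.6, was taken as the limit of near background, since the values come without detection calls. The signals of 18 hybridization control probe sets fell into 3 pairs, naïve 1 with iLarge T 2, naïve 3 with iLarge T 4 and naïve 5 with iLarge T 6. The root mean square log2 difference was 0.19 to 0.35 within a pair and at least 0.60 to any other array, so that each pair was also used as a block. Naïve replicate 1 correlated with the other naïve arrays at 0.829 and 0.831 across probe sets, against 0.892 between those arrays, and iLarge T replicate 6 carried more signal from blood cell genes than any other array. All 7 stromal genes measured, among them Col1a1, Col1a2 and Col3a1, had signals over the limit on all 6 arrays. Their summed signal was 152883 to 249942 on the naïve arrays and 257077 to 455075 on the iLarge T arrays. Nt5e of this list went the other way and was lower on every iLarge T array than on any naïve array.

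In iLarge T BMSC 2 of the 9 genes rose, 1 fell and the other 6 were not called, beside 6.8% of all 18193 genes called in either direction, 3.54% higher and 3.26% lower. To be called, a gene had to change at least 2-fold with an adjusted p below 0.05 in limma, which fits each probe set by a linear model and moderates its variance by that of the rest, with Benjamini-Hochberg adjustment over all probe sets. Cyp26b1 and Aldh1a2 rose and Aldh1a1 fell. The signals of the groups did not overlap for 5 of the 9 genes, which were these 3, Crabp2 and Rarb, beside 27.6% of all genes. In 4 of them all iLarge T arrays lay above all naïve arrays, beside 14.5% of all genes, and in 1 below, beside 13.1%. The same 5 had an unadjusted p under 0.05, as did 22% of all genes. The median log2 fold change, iLarge T minus naïve, was 1.01 over the 9 genes and 0.06 over all genes.

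**Figure D1:**
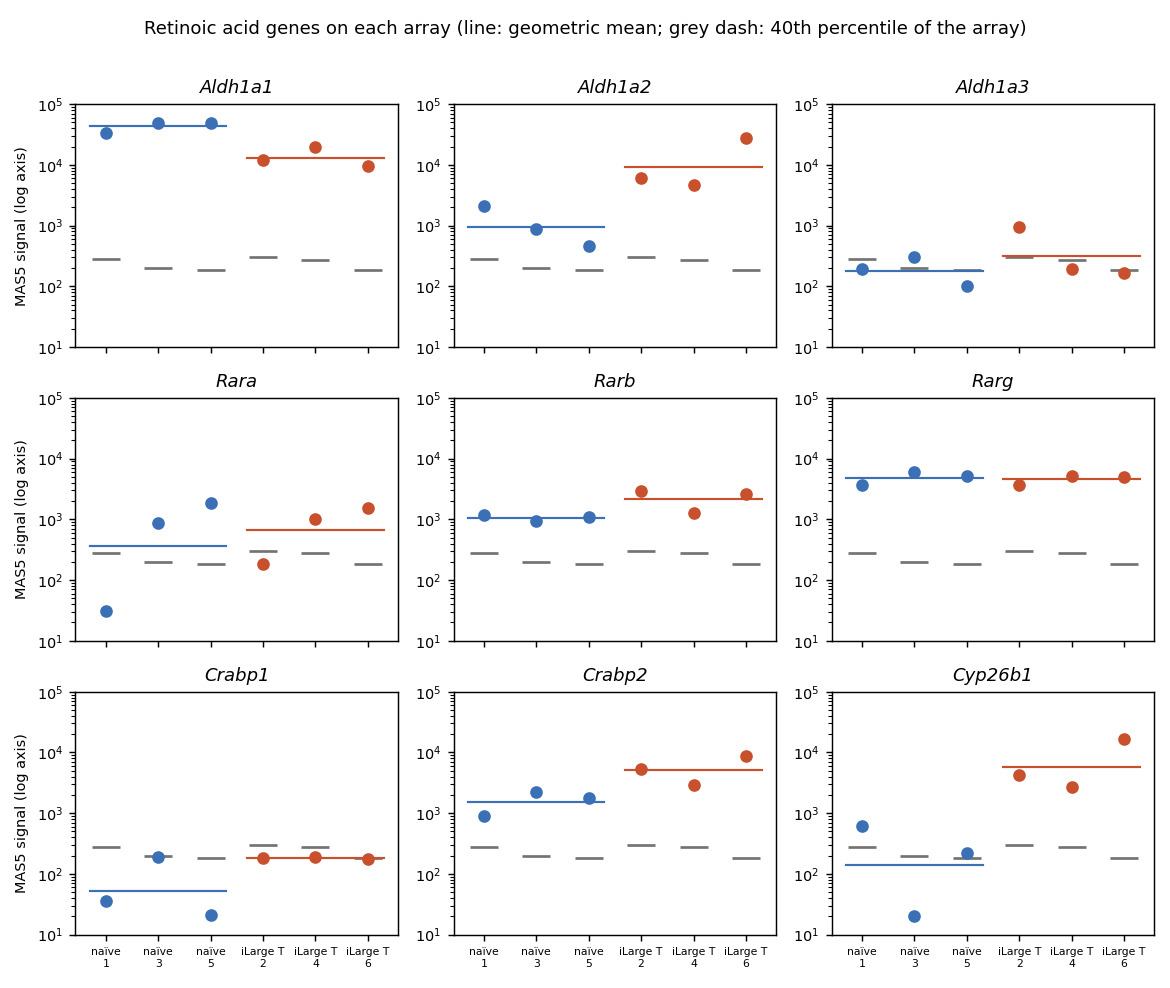
MAS5 signal (log axis) of the 9 retinoic acid genes on the 3 naïve arrays (blue) and 3 iLarge T arrays (red). Coloured lines are geometric means of the groups, and grey dashes mark the 40th percentile of each array. Aldh1a1 lies lower and Aldh1a2, Crabp2, Cyp26b1 and Rarb lie higher on all 3 iLarge T arrays, while Crabp1 is at or under the dashes on all 6.

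The enzymes that make retinoic acid moved in opposite directions. Aldh1a1, the retinal dehydrogenase first known from liver and eye and widely used as a marker of stem cells, was bright in both groups. The naïve replicates 1, 3 and 5 gave signals of 33727, 49695 and 49081, and the iLarge T replicates 2, 4 and 6 gave 11938, 20068 and 9461. All 3 iLarge T arrays lay under all 3 naïve arrays. Naïve BMSC had a mean signal of 44168 ± 9047 (SD, n = 3), and iLarge T BMSC had 13822 ± 5549 (SD, n = 3). The level fell 3.31-fold, which is a log2 fold change of -1.73 with a standard error of 0.31 (95% interval -2.43 to -1.02, limma adjusted p = 0.0134). Within the hybridization pairs the log2 difference was -1.50, -1.31 and -2.38. In cultures, fewer cells that express a gene and less of its RNA in each cell cannot be told apart.

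Aldh1a2, the enzyme that makes most of the retinoic acid of the early embryo and that meninges and mesothelium express, went the other way. Its signals were 2111, 869 and 452 on the naïve arrays and 6036, 4748 and 27491 on the iLarge T arrays. The groups did not overlap, and iLarge T replicate 6 stood far above the other iLarge T arrays. Aldh1a2 rose 9.83-fold, or by 3.30 on the log2 scale with a standard error of 0.70 (95% interval 1.73 to 4.87, limma adjusted p = 0.0275). Within the hybridization pairs the log2 difference was 1.52, 2.45 and 5.93, all in the same direction but with a wide range. Without iLarge T replicate 6 the log2 fold change was 2.51 (adjusted p = 0.0829) and the gene was no longer called.

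Aldh1a3, the retinal dehydrogenase of the developing eye and nose, lay near background. Its brightest probe set had signals of 196, 300 and 101 on the naïve arrays and 951, 195 and 165 on the iLarge T arrays. Only iLarge T replicate 2 stood out, and the groups overlapped. The log2 fold change was 0.79 with a standard error of 0.91 (limma adjusted p = 0.740), and the other probe sets of Aldh1a3 gave 0.92 (adjusted p = 0.822) and 1.25 (adjusted p = 0.620), highest on the same array at 1088 and 395.

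The stretches just before the start sites of the opposed enzymes are shown because they differ in base composition. RefSeq lists them on GRCm38.p6 at chr19:20492333-20492582 for Aldh1a1 and chr9:71215539-71215788 for Aldh1a2, both on the plus strand, and each holds 250 bases that end at the base before the start site. CpG dinucleotides are in capitals.
Aldh1a1: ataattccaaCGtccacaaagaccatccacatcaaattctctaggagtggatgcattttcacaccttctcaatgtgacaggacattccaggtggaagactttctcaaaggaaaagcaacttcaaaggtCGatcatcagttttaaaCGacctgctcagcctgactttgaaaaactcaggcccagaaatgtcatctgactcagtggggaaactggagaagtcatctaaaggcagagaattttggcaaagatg
Aldh1a2: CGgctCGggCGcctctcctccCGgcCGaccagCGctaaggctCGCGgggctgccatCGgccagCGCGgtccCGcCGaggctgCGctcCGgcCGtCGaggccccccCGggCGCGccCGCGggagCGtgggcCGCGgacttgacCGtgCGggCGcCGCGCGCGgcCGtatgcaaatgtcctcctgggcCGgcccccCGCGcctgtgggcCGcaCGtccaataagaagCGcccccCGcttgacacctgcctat
Aldh1a1 has 3 CpG dinucleotides here and Aldh1a2 has 40. Over the full window of 300 bases, which runs on past the start site, Aldh1a2 has 50, and 99.1% of 32851 listed promoters have fewer. For Aldh1a1 at this start site, 23.3% have fewer. Another Aldh1a1 start site is listed, whose window at chr19:20601718-20602017 has 1 CpG dinucleotide. Which start site these cells use was not tested. DNA methylation was not measured in these cells.

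Cyp26b1, a cytochrome P450 that hydroxylates retinoic acid and so clears it, changed most. Its signals were 612, 20.2 and 223 on the naïve arrays and 4299, 2703 and 16750 on the iLarge T arrays. Every iLarge T array lay above every naïve array, and naïve replicate 3 was under the near-background limit. Cyp26b1 rose by 5.37 on the log2 scale, with a standard error of 1.13 (95% interval 2.85 to 7.89, limma adjusted p = 0.0256), and by 4.27 when low signals were raised to the limit. Within the pairs the log2 difference was 2.81, 7.07 and 6.23. The 152 bases before its annotated span, at -250 to -99 from the listed start site, on the minus strand at chr6:84593909-84594060 of GRCm38.p6 in RefSeq, hold the letters TATAAA, a core promoter motif, shown in capitals.
Cyp26b1: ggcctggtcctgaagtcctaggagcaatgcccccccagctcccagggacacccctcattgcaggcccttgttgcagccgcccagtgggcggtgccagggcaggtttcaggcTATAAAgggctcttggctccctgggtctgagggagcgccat
TATAAA on either strand occurs in 13.6% of the listed promoters and in 1 of the 12 listed for these genes. Aldh1a3 and Crabp2 have no entry among them.

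The calls of Aldh1a1, Aldh1a2 and Cyp26b1 depended on the arrays and on the model. That of Aldh1a1 was lost without iLarge T replicate 2 (0.0623) or 6 (0.0630) or naïve replicate 3 (0.0687) or 5 (0.0582), that of Aldh1a2 also without iLarge T replicate 2 (0.0716) or naïve replicate 3 (0.0884) or 5 (0.0839), and that of Cyp26b1 without iLarge T replicate 2 (0.0914), 4 (0.0638) or 6 (0.124), each number in brackets being the adjusted p. The direction was kept each time. The methods' t-test called none of the 9 genes, on log2 values (0.077% of all genes called) or on linear signals (0.291%), and limma without the intensity trend called none either.

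Of the binding proteins, 1 was measured over background and 1 was not. Crabp2, which delivers retinoic acid to its nuclear receptors, had signals of 892, 2261 and 1783 on the naïve arrays and 5431, 2919 and 8732 on the iLarge T arrays. The groups did not overlap, but the lowest iLarge T signal was close to the highest naïve one. The log2 fold change was 1.76 (standard error 0.47, 95% interval 0.70 to 2.81, adjusted p = 0.0683 from limma), which missed the threshold. With the hybridization pairs as a block Crabp2 passed it (adjusted p = 0.0461), and the log2 difference within pairs was 2.61, 0.37 and 2.29. Crabp1, a related carrier linked to breakdown of retinoic acid, had signals of 35.7, 193 and 21.3 on the naïve arrays and 182, 190 and 175 on the iLarge T arrays. All 6 lay under the near-background limit of their array, so no fold is given for Crabp1.

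None of the retinoic acid receptors passed the test. Rarg, the receptor of skin and skeletal progenitors, had signals of 3676, 5967 and 5094 on the naïve arrays and 3614, 5215 and 4961 on the iLarge T arrays. The log2 fold change of Rarg was -0.09 with a standard error of 0.29 (95% interval -0.74 to 0.57, adjusted p = 0.928 from limma), an interval that leaves out a 2-fold change in either direction. The other probe set of Rarg gave -0.41 (standard error 0.45, 95% interval -1.42 to 0.60, limma adjusted p = 0.723), an interval that includes a 2-fold fall. Rara, the most widely expressed receptor, had signals of 31.2, 863 and 1855 on the naïve arrays and 183, 995 and 1546 on the iLarge T arrays. The lowest signal of each group was on an array of the same pair, naïve 1 and iLarge T 2, and both were near background. For Rara the log2 fold change was 0.83 with a standard error of 1.40 (95% interval -2.29 to 3.95, adjusted p = 0.835), and without naïve replicate 1 it was -0.95 (adjusted p = 0.573), so that these arrays give no direction for Rara.

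Rarb, a receptor that is itself a classical target of retinoic acid, had signals of 1167, 954 and 1073 on the naïve arrays and 2972, 1265 and 2601 on the iLarge T arrays. The groups did not overlap, though iLarge T replicate 4 lay just above naïve replicate 1. A log2 fold change of 1.01 with a standard error of 0.40 (95% interval 0.11 to 1.91) came with an unadjusted p of 0.0317 and an adjusted p of 0.223 from limma, and Rarb was not called. The log2 difference was 1.35, 0.41 and 1.28 within the pairs, and with the pairs as a block the adjusted p was 0.124. Among the iLarge T arrays Rarb, Crabp2, Aldh1a2 and Cyp26b1 were all lowest on replicate 4, and of these only Rarb was highest on replicate 2.

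**Figure D2:**
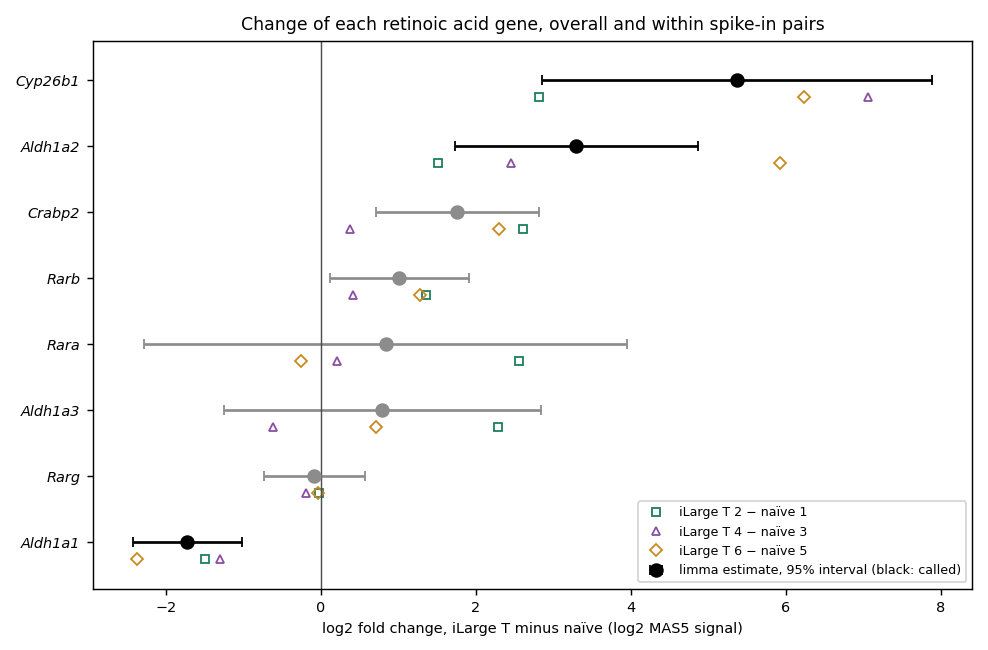
Log2 fold change (iLarge T minus naïve) of each gene from limma with its 95% interval (filled circles; black for called genes, grey for others), and the log2 difference within each pair of arrays that share hybridization control levels (open symbols). The intervals of Aldh1a1, Aldh1a2, Crabp2, Cyp26b1 and Rarb leave out 0, and for these genes all 3 open symbols lie on the same side of 0. Crabp1, near background on all arrays, is left out.

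The response element of Rarb is shown because it is the textbook site through which retinoic acid receptors act on a gene of their own family. Promoters were searched on both strands for direct repeats of a motif spelled AGGTCA or else GGGTCA or else AGTTCA or else GGTTCA, in any combination, spaced by 1, 2 or 5 bases. Of the 12 promoters listed for 7 of the 9 genes, only that of Rarb held a match, with a spacing of 5, which occurs in 0.0974% of the 32851 promoters (0.222% for a spacing of 1 and 0.268% for 2). The 150 bases before the start site are on the minus strand at chr14:16575477-16575626 of GRCm38.p6 in RefSeq, with the repeat in capitals, and the matching site of Cyp26a1, at chr19:37697776-37697792 on the plus strand, reads as a repeat on the opposite strand.
Rarb: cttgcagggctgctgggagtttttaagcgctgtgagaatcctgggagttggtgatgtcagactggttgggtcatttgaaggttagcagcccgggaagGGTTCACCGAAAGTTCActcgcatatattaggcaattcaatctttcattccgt
Cyp26a1: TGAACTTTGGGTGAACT
The Rarb repeat lies at -53 to -37 from the start site. Cyp26a1, another retinoic acid hydroxylase and a sensitive target of the pathway, was dim. Its signals were 57.2, 60.8 and 20.3 on the naïve arrays and 130, 535 and 113 on the iLarge T arrays. Only iLarge T replicate 4 passed the near-background limit, so no fold is given for Cyp26a1, which was not called. A match describes letters and shows no binding in these cells.

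Within the hybridization pairs, 4 of the 9 genes (Aldh1a2, Crabp2, Cyp26b1 and Rarb) were higher in iLarge T BMSC in each pair, beside 25.8% of all genes, and 2 (Aldh1a1 and Rarg) were lower in each, beside 22.5% of all genes. With the pairs as a block, 3 of the 9 genes rose and 1 fell, beside 9.87% of all genes called. The pairs come from the control signals and not from the labels, which state no pairing.

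Other genes of the pathway were taken from lists written from general knowledge, of which 63 of 71 genes had a probe set of their own. Of these 63, 4 rose, 4 fell and 55 were not called, beside 3.54% of all genes called higher and 3.26% lower. Their median log2 fold change was 0.12, against 0.06 over all genes. Rdh10, the dehydrogenase that makes most retinal from retinol in the embryo, had signals of 1561, 1614 and 1697 on the naïve arrays and 6170, 11100 and 9024 on the iLarge T arrays. The naïve arrays were nearly equal, and all iLarge T arrays lay over 3 times higher. The rise of Rdh10 was 2.39 on the log2 scale with a standard error of 0.30 (limma adjusted p = 0.00239), and its other probe set rose by 2.79 (adjusted p = 0.00629). It was the only one called of 14 genes for the interconversion of retinol and retinal, beside 6.8% of all genes called in either direction. Dhrs3, which turns retinal back into retinol, had signals of 659, 11965 and 16967 on the naïve arrays and 944, 2939 and 3333 on the iLarge T arrays, and its log2 fold change of -1.28 had a standard error of 1.05 (limma adjusted p = 0.610). Naïve replicate 1 lay under all iLarge T arrays for Dhrs3, and without it the gene was called lower (adjusted p = 0.00566).

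Of 8 genes for uptake and storage of retinol, none rose and 2 fell, beside 3.54% of all genes called higher and 3.26% lower. Stra6, the membrane receptor that takes up retinol from its plasma carrier, had signals of 176, 1738 and 2028 on the naïve arrays and 41.1, 49.4 and 36.8 on the iLarge T arrays. On the iLarge T arrays and on naïve replicate 1 it was near background, and its level in iLarge T BMSC was at least 3.46-fold lower (limma adjusted p = 0.0481). Lpl, a lipoprotein lipase that also releases retinol from chylomicrons, fell by 4.33 on the log2 scale with a standard error of 0.93 (limma adjusted p = 0.0281), from signals of 23338, 71142 and 60780 to 1065, 808 and 14321. The call of Stra6 was lost without any 1 array other than naïve replicate 1 (adjusted p of 0.114 to 0.240), and that of Lpl without iLarge T replicate 2 (0.126) or 4 (0.118) or naïve replicate 3 (0.102) or 5 (0.0826).

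Among 18 target genes of retinoic acid, 3 rose, 3 fell and 12 were not called, beside 3.54% of all genes called higher and 3.26% lower. The median log2 fold change was 0.58, against 0.06 over all genes. Rarres1, a membrane protein named for its response to retinoids, had signals of 2013, 31.8 and 67.3 on the naïve arrays and 6340, 7928 and 8744 on the iLarge T arrays. Rarres1 rose by 5.55 on the log2 scale with a standard error of 1.23 (limma adjusted p = 0.0326), or by 4.17 with low signals raised to the limit. Nr2f1, a nuclear receptor of neural crest and brain, rose by 3.70 with a standard error of 0.52 (adjusted p = 0.00418). Stra6 and Meis1, a homeobox factor of limb and blood, fell, the latter by 2.77 with a standard error of 0.63 (adjusted p = 0.0368). The remaining called targets were Meis2, which fell by 2.54 with a standard error of 0.28 (adjusted p = 0.00146), and Rai14, an actin-binding protein, which rose by 1.61 with a standard error of 0.22 (adjusted p = 0.00399), and both are named after their values were seen. The calls of Rarres1 (adjusted p of 0.0897 to 0.126) and Meis1 (0.0644 to 0.165) were lost without any 1 array other than naïve replicate 1, while those of Nr2f1, Meis2 and Rai14 were kept with any 1 array left out. Tgm2, tissue transglutaminase, another classical target, had signals of 2996, 46005 and 43294 on the naïve arrays and 3118, 3729 and 8308 on the iLarge T arrays, and was not called (adjusted p = 0.293) unless naïve replicate 1 was left out (adjusted p = 0.000538).

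**Figure D3:**
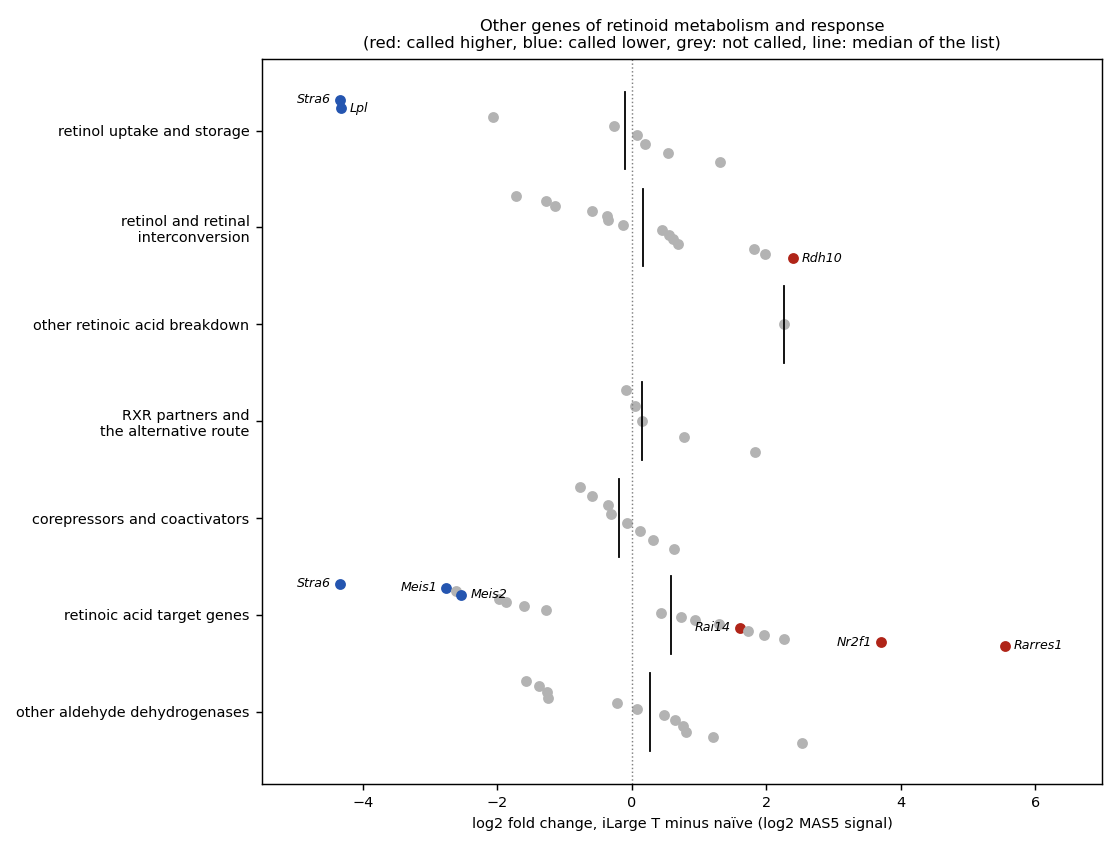
Log2 fold change (iLarge T minus naïve) of the other genes of retinoid metabolism and response, 1 point a gene, by list. Red points were called higher, blue points lower and grey points were not called, and black lines are the medians of the lists. Rdh10, Nr2f1, Rarres1 and Rai14 lie to the right and Stra6, Lpl, Meis1 and Meis2 to the left, with Stra6 in both the uptake and the target list, and the single point for other breakdown is Cyp26a1, near background on 5 of 6 arrays.

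The partners of the receptors and their cofactors were not called, beside 6.8% of all genes called in either direction. Rxra had signals of 1647, 3074 and 3307 on the naïve arrays and 1274, 3565 and 5074 on the iLarge T arrays, and its log2 fold change was 0.15 with a standard error of 0.51 (limma adjusted p = 0.926). That of Rxrb was -0.09 with a standard error of 0.39 (adjusted p = 0.944). The sign of both turned when single arrays were left out. Fabp5, which can carry retinoic acid to another nuclear receptor, had signals of 54120, 7036 and 6339 on the naïve arrays and 47402, 21185 and 109062 on the iLarge T arrays, and its log2 fold change of 1.83, with a standard error of 0.80 (adjusted p = 0.273), was not called. Without naïve replicate 1 Fabp5 was called higher, at 2.84 (adjusted p = 0.00759). Of 8 corepressors and coactivators none was called, and Crebbp, taken for its highest mean signal, gave -0.59 with a standard error of 0.22 (adjusted p = 0.190). The other probe sets of Crebbp gave -1.50 (limma adjusted p = 0.0894), -0.97 (0.362) and -0.92 (0.831) and were not called. Of 12 other aldehyde dehydrogenases, which act on other aldehydes for the most part, none was called, and Aldh18a1, taken by the same rule, gave -1.26 with a standard error of 0.35 (adjusted p = 0.0753), or -1.67 and a call without naïve replicate 1 (adjusted p = 0.00139). With the hybridization pairs as a block Aldh9a1 of this list was called lower (-1.24, -1.71 and -1.76 within pairs, adjusted p = 0.00354), as was the target gene Rarres2 (-1.77, -3.47 and -2.62, adjusted p = 0.0198), both named after their values were seen. Aldh1a7, a close relative and chromosomal neighbour of Aldh1a1, had a signal of 31609 on naïve replicate 1 and of 455 to 1113 on the other 5 arrays. On that array Aldh1a1 had its lowest naïve signal. How far the probe sets of Aldh1a1 and Aldh1a7 share target RNA was not tested.

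Some markers of other cell types moved with the groups, beside 3.54% of all genes called higher and 3.26% lower. The summed signal of 8 mesothelial genes lay between 243601 and 305150 on the naïve arrays and between 4043 and 5441 on the iLarge T arrays, and 7 of them fell. The summed signal of 7 meningeal fibroblast genes was 5745 to 8929 on the naïve and 29968 to 60311 on the iLarge T arrays. Foxc1 and Foxd1 rose and, with Zic1, which was not called (limma adjusted p = 0.186), made up most of the iLarge T sums. The rest of the list was not called. Ptgds had a log2 fold change of 0.59. Col13a1, at 1.99, was 0.32 with low signals raised to the limit. Slc22a6, at -1.26, was 0.10 with low signals raised, so that it gave no direction. Slc6a13 was near background on all 6. The sum of 5 pericyte genes was 3251 to 4874 and 48967 to 84709, and Rgs5, Cspg4 and Pdgfrb rose, with Kcnj8 near background on all 6. Between the groups Aldh1a1 moved in the direction of the mesothelial sum, and Aldh1a2 and Cyp26b1 in that of the meningeal and pericyte sums. Aldh1a2, which mesothelium also expresses, thus moved against the mesothelial sum. Any gene that differs between 2 groups moves with some of these sums, so the direction alone does not tell cell types apart. Within the groups the order of arrays differed in places and matched in others. Naïve replicate 1 had the highest naïve signals of Aldh1a2 and Cyp26b1 but the lowest naïve meningeal and pericyte sums. The highest iLarge T signal of Aldh1a1 was on iLarge T replicate 4, which had the lowest mesothelial sum. On the naïve arrays, however, Aldh1a1 and the mesothelial sum were both lowest on replicate 1 and highest on replicate 3. On the iLarge T arrays Aldh1a2, Cyp26b1 and the meningeal sum were all lowest on replicate 4 and highest on replicate 6. Of 5 astrocyte genes none was called, and of 4 neuronal genes 1 rose. Of 7 stromal genes 1 rose, Cd44, with a log2 fold change of 2.04 (limma adjusted p = 0.0305), and the rest were not called. The part of these cell types in the results was not tested.

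The sum of 7 blood and macrophage genes was 3653 to 11608 on the naïve arrays, 6906 and 8188 on iLarge T replicates 2 and 4, and 112693 on iLarge T replicate 6. Lyz2, a lysozyme of macrophages, made up most of the last value with a signal of 78316, and Ptprc, the common leukocyte antigen, had 4440 there against 205.7 or less on the other arrays. The sum of 5 endothelial genes was also highest on that array, at 33596 against 3811 to 9783 elsewhere. Of these, 4 had a positive log2 fold change, as did 52.5% of all genes, and 1 a negative one. Pecam1, Kdr and Cldn5, at 4.29, 1.02 and 2.05, were not called. Cdh5, the cadherin of endothelial junctions, rose, with signals of 27.5 to 210 on the naïve arrays and of 2211, 2787 and 23797 on the iLarge T arrays (adjusted p = 0.00760). Tek, the angiopoietin receptor, fell from 5703, 8480 and 9080 to 502, 458 and 1300 (adjusted p = 0.00243). Aldh1a2, Cyp26b1 and Crabp2 all had their highest signal on iLarge T replicate 6. On iLarge T replicates 2 and 4 these genes were also above every naïve array, and so were Lyz2 (1125 and 2844, against at most 324) and Csf1r. Of the same blood list, Adgre1 (371 and 303, against up to 670) and Cd68 (317 and 1329, against up to 9873) were not. Cd14 was above every naïve array only on replicate 4 and Itgam only on replicate 2, and Ptprc was near background on both. Most of the blood sum of naïve replicates 3 and 5 came from Cd68, a lysosomal protein of macrophages, with signals of 9873 and 8396. The part of blood and endothelial cells in the results was not tested. Csf1r, the receptor for macrophage colony-stimulating factor, was the gene of the blood list that was called, with signals of 883, 330 and 339 on the naïve arrays and 3716, 1892 and 5673 on the iLarge T arrays. Its other probe sets gave log2 fold changes of 1.05 (limma adjusted p = 0.177) and 3.66 (0.0690) and were not called. The call of Csf1r was lost without iLarge T replicate 2 (adjusted p = 0.0733) or 6 (0.0806) or naïve replicate 3 (0.0610) or 5 (0.0517). With naïve replicate 1 and iLarge T replicate 6 both left out, a choice made after seeing the data, 2 of the 9 genes rose and 1 fell, beside 13.9% of all genes called.

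**Figure D4:**
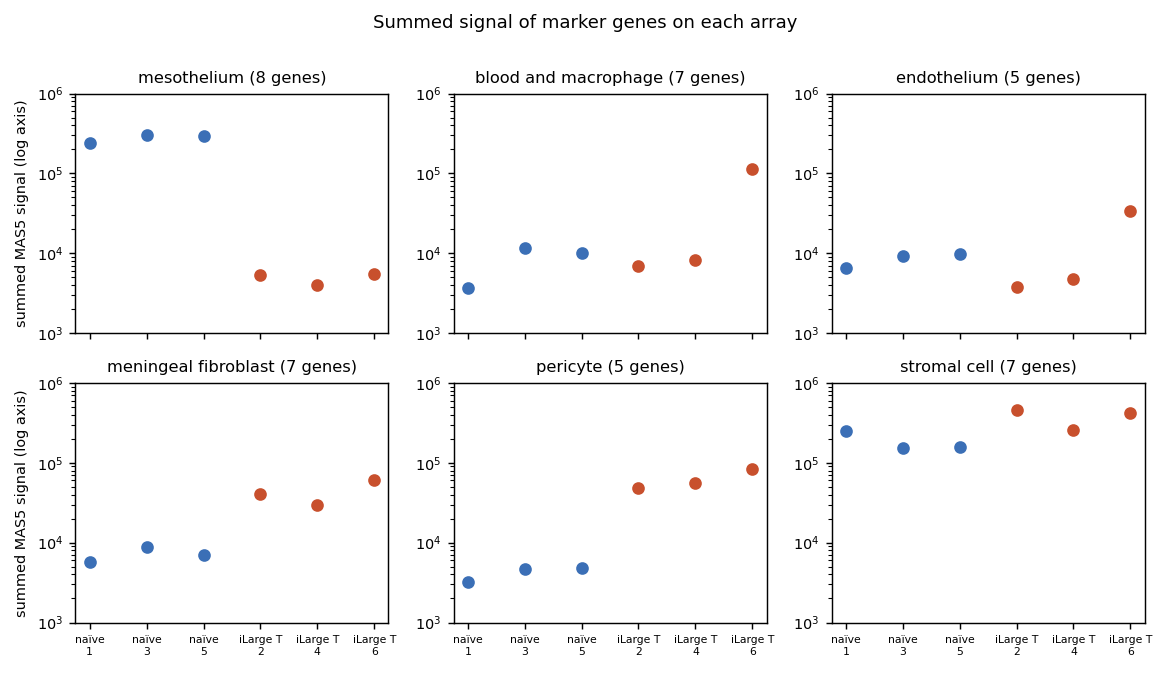
Summed MAS5 signal (log axis) of marker genes of 6 cell types on the 3 naïve (blue) and 3 iLarge T arrays (red). The mesothelial sum is high on the naïve arrays and the meningeal and pericyte sums on the iLarge T arrays. The blood and endothelial sums stand out on iLarge T replicate 6.

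Genes most alike to the called members were sought among genes at or over the median mean signal, by the root mean square difference of their log2 signals over the 6 arrays, each gene centred on its mean. For Aldh1a1 they were Paxbp1 at 0.10, Zmynd19 at 0.15 and Nup85 at 0.16. For Aldh1a2 they were Csf1r at 0.59, Slco3a1, an organic anion transporter, at 0.64 and 1500009L16Rik at 0.64. For Cyp26b1 they were the cytokine Il6 at 0.67, the ubiquitin ligase Rnf128 at 0.77 and the leukocyte tetraspanin Cd53 at 0.80. The likeness was closer for Aldh1a1, whose arrays varied less, and no test was made of it.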

How the data were processed

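Total RNA was labelled and hybridized to Affymetrix mouse genome arrays. The authors deposited 1 intensity per probe set and array on a linear scale, computed by MAS5 (named in the submitters' processing notes). Log2 was taken here, with no pseudocount. Of 45101 probe sets, 64 controls were left out and 45037 tested. The platform annotation gave 1 gene symbol for 34945, several for 932 and none for 9160. A gene that shares every probe set is not reported. The fits, checked on simulated data, were made by limma 3.58.1 under R 4.3.3, where eBayes let the prior variance follow the mean signal, and tables and figures Python 3.11.15, pandas 2.3.3, numpy 2.4.6 and matplotlib 3.10.9. The number of arrays limits the precision.

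The members and lists were chosen with earlier results of these data known. All members were named. Of the other pathway lists, up to 4 called genes with the largest changes were named, or else the brightest gene, and for each called member the 3 genes most alike. Other settings tried were the methods' unpaired t-test with log2 or linear signals, limma without the trend, removal of dim probe sets, quantile normalization, low signals raised to the 40th percentile, a pseudocount of 16, omission of each array in turn, other choices of probe set and no fold threshold. The hybridization pairs as a block and leaving out 2 arrays were added after seeing the data. RefSeq promoters on GRCm38.p6 run from 250 bases before to 50 after a start site.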

Additional observations from a re-analysis of the deposited data

How the results depend on the processing

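The methods' t-test, with log2 or with linear signals, and limma without the intensity trend called 0 of the 9 genes higher and 0 lower, and called 7 and 7, 17 and 36, and 85 and 48 of all genes higher and lower. In this order the log2 fold changes were -1.73 (adjusted p = 0.164), -1.68 (0.173) and -1.73 (0.154) for Aldh1a1, 3.30 (0.268), 3.48 (0.574) and 3.30 (0.177) for Aldh1a2, and 5.37 (0.267), 4.80 (0.542) and 5.37 (0.166) for Cyp26b1. With 1 array left out, 0 to 2 of the 9 genes were called higher and 0 to 1 lower, and 250 to 1298 and 232 to 1214 of all genes. The log2 fold changes then ranged from -2.03 to -1.49 for Aldh1a1, 2.51 to 3.88 for Aldh1a2 and 3.97 to 6.43 for Cyp26b1. Without the 2 arrays that stand apart 1211 and 1321 of all genes were called, and with low signals raised 971 were called higher. Crabp2 was also called with low signals raised (adjusted p = 0.0142). Quantile normalization, the filter on dim probe sets and the larger pseudocount changed no call of the 9 genes. Neither did the other choices of probe set or the absence of a fold threshold. Aldh1a1, Aldh1a2 and Cyp26b1 have 1 probe set each, so picking another could not change their calls. Dropping the fold threshold could only add calls. The filter on dim probe sets left out Aldh1a3 and Crabp1, which have no value there.

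Directions turned for genes that were not called. Rara was -0.013 on linear signals, -1.57 without the 2 arrays, and -0.95 (without naïve replicate 1) to 1.999 with 1 array left out. Aldh1a3 ranged from -0.012 (without iLarge T replicate 2) to 1.25, and Rarg from -0.28 to 0.079 (0.069 without naïve replicate 3). Rxra was -0.16, -0.0091 and -0.26 without naïve replicate 1 and iLarge T replicates 4 and 6, 0.73 at most with 1 array left out, and -0.58 without the 2 arrays. Rxrb ranged from -0.57 to 0.22, positive without naïve replicates 3 and 5 (0.078), and Aldh1a7 from -2.44 to 0.61 (without naïve replicate 1), with 0.81 without the 2 arrays. Paxbp1 was 1.67 at its most variable probe set. The cause was not tested. Other than with the hybridization pairs as a block, no paired analysis was possible because the groups share no replicate number in the labels.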

Other observations

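Within the naïve group, replicate 1 differed from replicates 3 and 5 for several genes of retinoid metabolism and response. It was lower for Rara (31.2 against 863 and 1855), Stra6 (176 against 1738 and 2028), Dhrs3 (659 against 11965 and 16967) and Tgm2 (2996 against 46005 and 43294), and higher for Aldh1a7 (31609 against 455 and 561), Rarres1 (2013 against 31.8 and 67.3) and Fabp5 (54120 against 7036 and 6339). Aldh1a2 and Cyp26b1 also had their highest naïve signals on this array.

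Ttr, the plasma carrier of retinol binding protein and a product of the choroid plexus, reached 9958 on iLarge T replicate 6, against 11.0 to 253 on the other 5 arrays.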
